A study of Drosophila melanogaster with 12 samples.

Results

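The transcripts described here are those of the Rab GTPases of Drosophila melanogaster. They were taken as every row of both count tables whose gene symbol is Rab followed by a number, or Rab followed by X and a number. The rule gave 32 genes, and all 32 were listed in both tables, among 15682 genes of the antibody experiment and 17559 genes of the GFP-binder experiment. Rab3-GAP and Rab3-GEF begin with the same letters but encode regulators, and ltd, whose product is also called Rab32, does not carry a Rab symbol. These 3 genes were placed in lists of related genes. Of the 32 members, 13 lie on chromosome X, 5 on each of the arms 2L, 3L and 3R, and 4 on 2R.

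Rabs are small GTPases that mark membranes. With GTP bound they sit on a vesicle or organelle and recruit effectors such as motors, tethers and coiled-coil golgins. Exchange factors switch them on and GTPase-activating proteins of the TBC family switch most of them off. In the early Drosophila embryo the plasma membrane grows down between the nuclei of the syncytial blastoderm, a process called cellularization. This furrow is fed by membrane from the Golgi and from recycling endosomes, and Rab11 and its adaptor Nuf are known to be needed for it.

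Slam is a protein at the basal tip of the cellularization furrow, and the study surveyed which RNAs are precipitated with it. The Slam-Ab group has 3 libraries of RNA precipitated from wild-type lysate with an antibody against Slam. The Dia-Ab group has 4 libraries from wild-type lysate with an antibody against Diaphanous (Dia), a formin that nucleates actin filaments. Because each of these antibodies binds a protein of its own, less RNA with Slam and more RNA with Dia cannot be told apart. The GFP-slam group has 2 libraries, numbered 1 and 3, from embryos with a genomic transgene that carries the slam locus with GFP at the N-terminus. Its RNA was precipitated with the GFP binder, a single-chain antibody. The OrR group has 3 libraries made with the same binder from wild-type embryos without GFP. No library holds RNA of a lysate before precipitation. Between GFP-slam and OrR, a difference in the RNA precipitated and a difference in the RNA of the lysates of these genotypes therefore cannot be told apart. All embryos were 1.5 to 3 h old and were lysed as pooled collections, so that each library mixes embryos before and during cellularization. Levels are given as counts per 1000000 (CPM) scaled by edgeR's TMM factors, and ratios as the fitted log2 of Slam-Ab over Dia-Ab or of GFP-slam over OrR with the standard error (SE) of the fit. A gene passed at a Benjamini-Hochberg adjusted p under 0.05 in edgeR's quasi-likelihood test over all genes kept. CPM rise with transcript length, so levels are compared between groups and not between genes.

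The antibody libraries held between 4383704 and 31647090 counts each, and those of the GFP binder between 20170936 and 47249817. The slam transcript had a log2 ratio of 6.30 in Slam-Ab over Dia-Ab and of 4.00 in GFP-slam over OrR (edgeR adjusted p 0.0056 and 2.26e-04), while dia had -3.45 in Slam-Ab over Dia-Ab (adjusted p 0.00835). The blastoderm genes nullo, halo and bnk were present in every library, but not evenly. In Slam-Ab over Dia-Ab nullo and halo had log2 ratios of 2.01 and 1.74 (edgeR adjusted p 2.18e-04 and 0.0122). Those of bnk and Sry-alpha were 0.13 and 0.25 (edgeR adjusted p 0.831 and 0.682). Whether the lysates of the groups differed in stage was not tested. Sry-alpha had 0 counts in both GFP-slam libraries and 2 in all of OrR. In the antibody experiment Sry-alpha had 282 to 538 CPM in Slam-Ab and 155 to 495 CPM in Dia-Ab. The cause of this gap between the experiments, such as how reads of the gene were counted, was not tested. Eggshell genes of follicle cells summed to at most 0.93 CPM in any library. A list of muscle and neuron genes of later stages summed to between 89.9 and 416 CPM in Slam-Ab and between 87.6 and 1405 CPM in Dia-Ab, of which Mhc made the largest part on average. In such lysates fewer cells of a type and less RNA per cell cannot be told apart. The part of these later-stage transcripts in the ratios of the Rabs was not tested.

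Together the 32 members took 1963 ± 335 CPM in Slam-Ab (SD, n = 3) and 2439 ± 119 in Dia-Ab (SD, n = 4) by total counts, before any scaling. The Slam-Ab libraries ran between 1583 and 2217 and the Dia-Ab libraries between 2320 and 2550, so that the groups did not overlap. The slam transcript alone made up 10.02%, 3.76% and 3.37% of all counts in Slam-Ab 1, 2 and 3, which lowers the share left for every other gene. With the counts of slam and dia taken out of the totals, the members took 2075 ± 280 CPM in Slam-Ab (SD, n = 3) and 2446 ± 120 in Dia-Ab (SD, n = 4), and the ranges still did not overlap (highest Slam-Ab 2295, lowest Dia-Ab 2329). In the GFP-binder experiment the members took 2424 ± 324 CPM by total counts in GFP-slam (SD, n = 2) and 2426 ± 268 in OrR (SD, n = 3), and the ranges of the 2 groups overlapped.

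**Figure D1:**
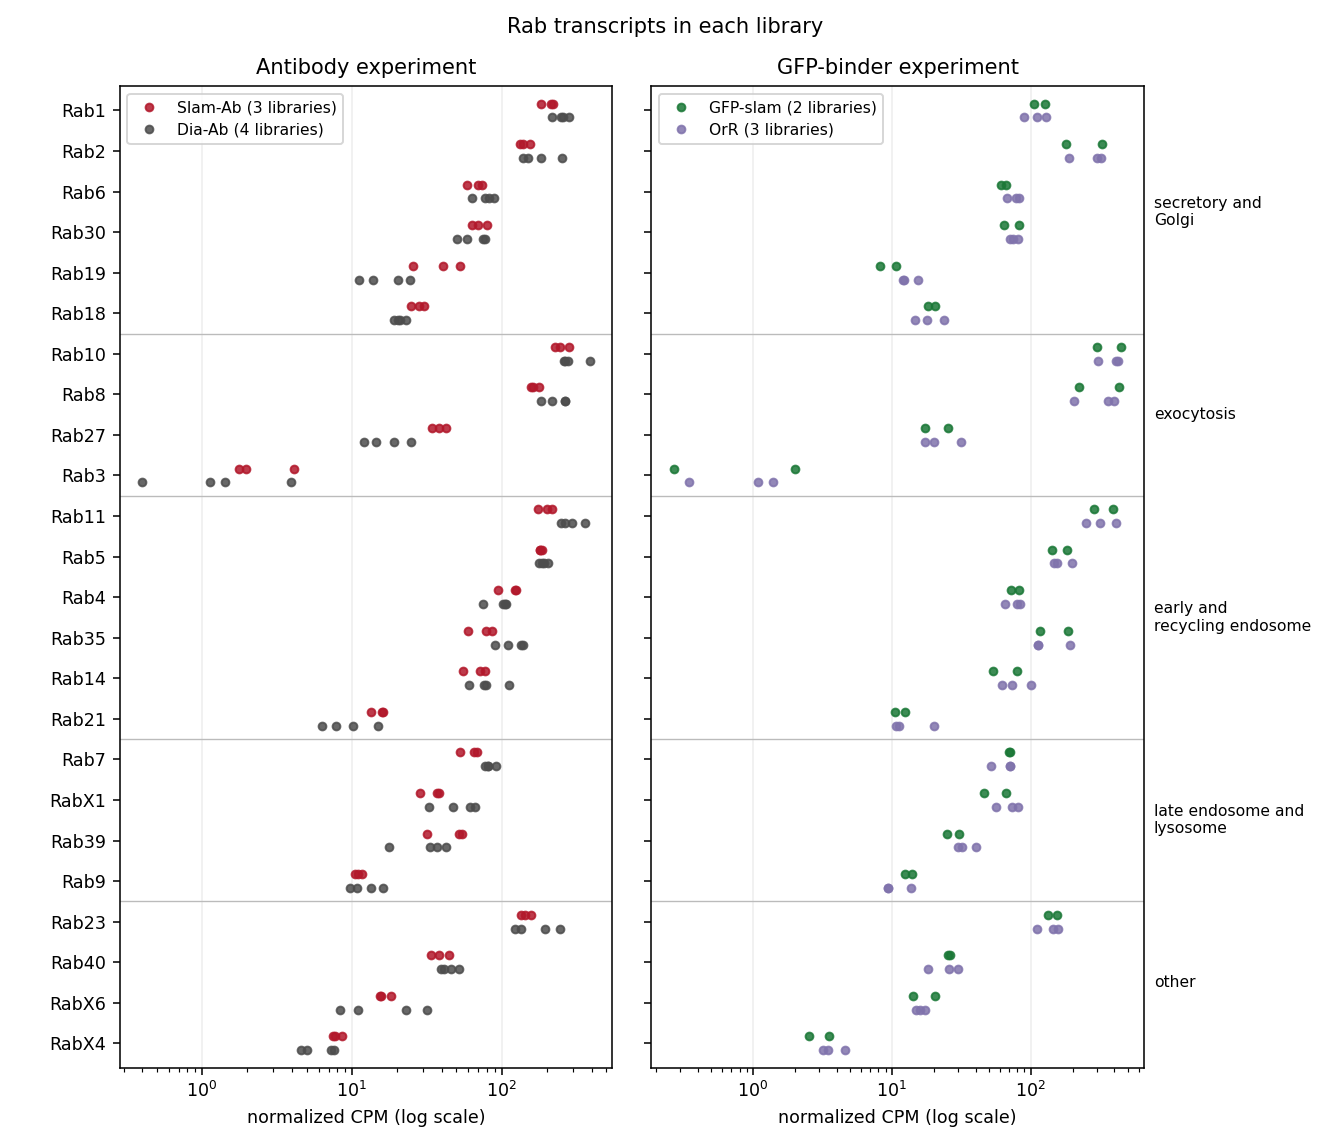
Normalized CPM on a log scale of the 24 Rab transcripts tested in at least 1 experiment, ordered by role of the protein, with 1 point per library (left: 3 Slam-Ab above 4 Dia-Ab libraries; right: 2 GFP-slam above 3 OrR libraries). Rab19, Rab18 and Rab27 are the tested members whose 3 Slam-Ab points all lie to the right of their 4 Dia-Ab points.

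In the antibody experiment 23 members passed the minimum, a mean normalized count of 50, and were tested. Rab19 and Rab27 rose in Slam-Ab and no member fell. That is 2 of 23 higher and 0 of 23 lower, beside 7.17% higher, 2.94% lower and 10.1% in either direction of the 7335 genes tested. With the replicate number as a block, 2 of 23 rose and 1, Rab35, fell, beside 10.6% higher and 8.97% lower of all genes tested. The labels do not say what the replicate numbers mean, so this pairing is an assumption. Dia-Ab 4 has no same-numbered Slam-Ab library and drops out of the ratio in that fit. The ratios of same-numbered libraries were above 0 in all 3 pairs for 6 members and below 0 in all 3 for 10. The same count was not made over all genes tested, so it cannot be set against a background. DESeq2 called 2 members higher and 2 lower, beside 10.3% and 6.38% of all genes. At an unadjusted p under 0.05 the counts of members were 2 higher and 5 lower, beside 16.2% and 12.5%, and 28.7% in either direction. In 3 members every Slam-Ab library lay above every Dia-Ab library, and in 4 every Slam-Ab library lay below, where the background over all genes tested was 15.9% and 10.8%. Of the fitted ratios 8 were above 0 and 15 below, against 48.3% above and 51.7% below over all genes tested. The median log2 ratio of the members was -0.21, beside -0.02 over all genes tested, and 17 of 23 lay within 0.5 of 0. Slam-Ab 1 was the lowest of its group in 14 of 23 members, against 36.2% of all genes tested, and Dia-Ab 1 was the highest of its group in 10 of 23, against 27.8%. Without Slam-Ab 1 the median of the members was -0.12, without Dia-Ab 1 it was -0.0956, and without Dia-Ab 4 it was -0.13.

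Rab19, a Rab of the Golgi in Drosophila, had 25.7, 40.4 and 52.8 CPM in Slam-Ab, against 11.1, 24.6, 13.9 and 20.5 CPM in Dia-Ab. The lowest Slam-Ab library lay just above the highest Dia-Ab library. The log2 ratio was 1.17 (SE 0.32, edgeR adjusted p 0.0396). The call was lost when Slam-Ab 2, Slam-Ab 3, Dia-Ab 1 or Dia-Ab 3 was left out (adjusted p 0.122, 0.169, 0.0923 and 0.0843, with log2 ratios between 0.90 and 1.17) and when libraries were scaled by total counts (adjusted p 0.0683). The authors' table places Rab19 on 3L from 8297018 to 8298506 with a transcript of 1033 bases, and the annotation of Release 6 has it overlap Arl5, a gene of the Arf family. Whether reads were counted by strand is not given in the sources used here, so reads of the overlap cannot be assigned to one of the pair. Arl5 averaged 82.3 ± 13.0 CPM in Slam-Ab and 130 ± 21.6 CPM in Dia-Ab (SD, n = 3 and 4; log2 ratio -0.66, edgeR adjusted p 0.0596).

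Rab27, known in mammals for the release of secretory granules, had 42.7, 38.3 and 34.3 CPM in Slam-Ab, against 14.5, 19.2, 25.04 and 12.004 CPM in Dia-Ab. All Slam-Ab libraries stood clear of the Dia-Ab libraries, with a smaller spread than for Rab19. The log2 ratio was 1.13 (SE 0.27, edgeR adjusted p 0.0225), and the ratios of same-numbered libraries were 1.55, 1.0 and 0.45. The call was lost without Slam-Ab 1, Slam-Ab 2 or Dia-Ab 1 (adjusted p 0.0748, 0.0788 and 0.0633, log2 ratios 1.06, 1.15 and 1.05). Rab27 lies on X from 1473884 to 1476974 in the authors' table, with a transcript of 1466 bases, and overlaps no gene of Release 6.

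With the GFP binder neither of these transcripts was higher in GFP-slam. Rab19 had 8.23 and 10.7 CPM in GFP-slam, against 15.3, 12.1 and 11.96 CPM in OrR, with both GFP-slam libraries below all OrR libraries (log2 ratio -0.47, SE 0.28, edgeR adjusted p 1.0). For Rab27 the levels were 25.4 and 17.2 CPM in GFP-slam, against 31.6, 20.05 and 17.3 CPM in OrR, and the groups overlapped (log2 ratio -0.11, SE 0.32, edgeR adjusted p 1.0). In a fit of all 12 libraries, which share no sample between the experiments, the ratio of Rab19 was larger with the antibody by 1.62 (SE 0.49) and that of Rab27 by 1.23 (SE 0.43). Neither difference passed (edgeR adjusted p 0.0948 and 0.141). Without Slam-Ab 1 the difference for Rab19 was 1.90 and passed (edgeR adjusted p 0.0457). With the other scalings, with filterByExpr or with any other Slam-Ab, Dia-Ab or OrR library left out, this difference did not pass (edgeR adjusted p 0.0691 to 0.210). No other member passed this test of the difference, where 3.25% of 7072 genes did (2.66% with a larger and 0.594% with a smaller ratio with the antibody), and 2 of 23 members had an unadjusted p under 0.05, beside 19.1% of all genes.

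**Figure D2:**
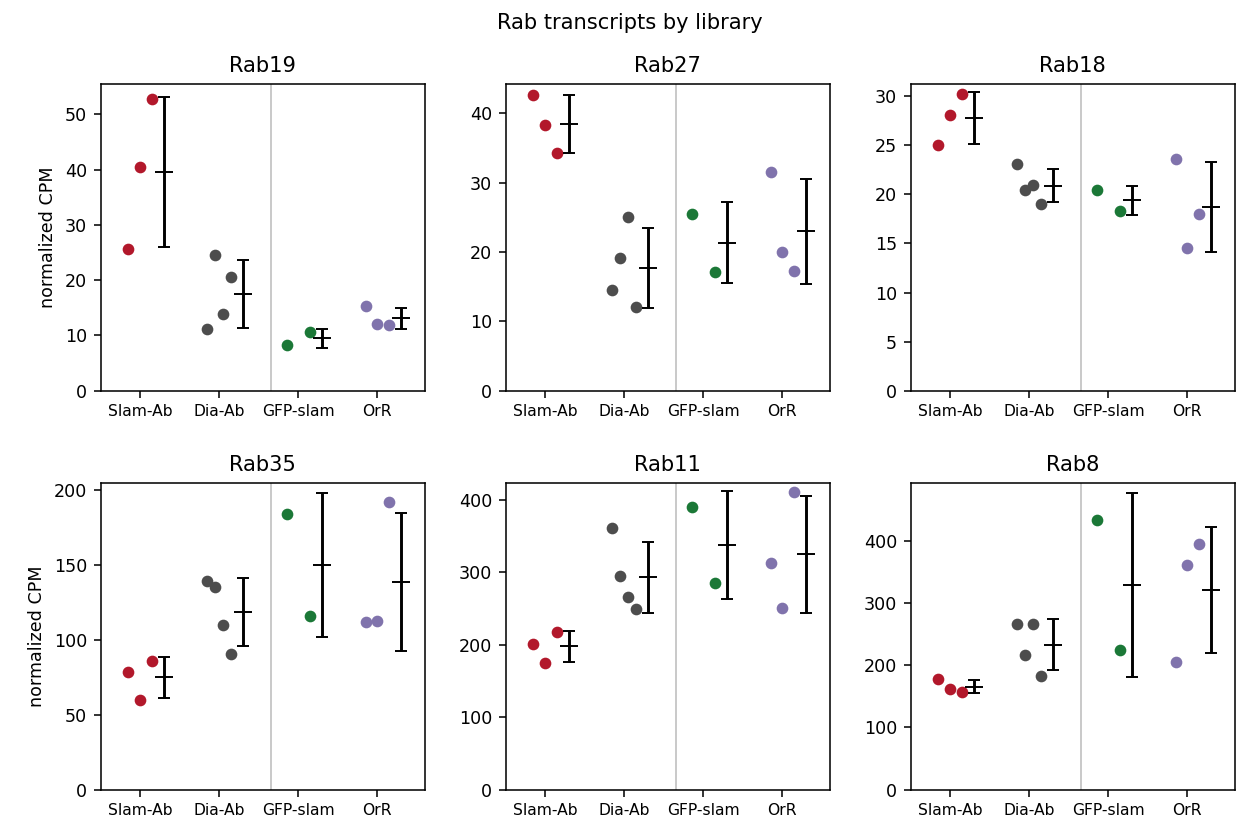
Normalized CPM of 6 Rab transcripts in each of the 12 libraries (points: libraries; bars: mean and SD; axes start at 0). Rab19 and Rab27 are higher in Slam-Ab than in Dia-Ab with no such step between GFP-slam and OrR, and Rab35, Rab11 and Rab8 have all Slam-Ab points below all Dia-Ab points.

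The 4 members with Slam-Ab libraries wholly below the Dia-Ab libraries, where 10.8% of all genes lay so, were Rab35 and Rab11, of 6 Rabs of early and recycling endosomes, Rab8, of 3 tested Rabs of exocytosis, and Rab7, of 4 Rabs of late endosomes and lysosomes. Rab35, known to recycle cargo to the plasma membrane, had 78.4, 59.9 and 86.1 CPM in Slam-Ab, against 139, 135, 110 and 90.6 CPM in Dia-Ab. Its log2 ratio of -0.67 (SE 0.22) was the lowest of the family and did not pass (edgeR adjusted p 0.0704). With the replicate block it was -0.79 and passed (adjusted p 0.0252), as it did with DESeq2, with lower minimums of counts, with total counts and without Dia-Ab 4 (adjusted p 0.0291 to 0.0483). The block and the fit without Dia-Ab 4 both take out that library, the lowest of Dia-Ab for Rab35. Total counts, a minimum of 10 and filterByExpr shifted the median of all genes tested by -0.09, -0.12 and -0.12. With any other single library left out, Rab35 did not pass (edgeR adjusted p 0.0818 to 0.285).

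Rab11, the Rab of the recycling endosome that is needed for cellularization, had 201, 175 and 217 CPM in Slam-Ab, against 361, 295, 266 and 249 CPM in Dia-Ab. The groups did not overlap, and Dia-Ab 1 was the highest of all. The log2 ratio of -0.57 (SE 0.21) did not pass (edgeR adjusted p 0.105), but passed with DESeq2 (adjusted p 0.0389) and with edgeR's filterByExpr as the minimum (adjusted p 0.0488). The filterByExpr setting shifted the median of all genes tested by -0.12.

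Rab8, which acts in exocytosis toward the plasma membrane, had 177, 162 and 156 CPM in Slam-Ab, against 267, 216, 267 and 182 CPM in Dia-Ab. The log2 ratio was -0.49 (SE 0.21, edgeR adjusted p 0.146), and the lowest Dia-Ab library lay close to the highest Slam-Ab library. In the GFP-binder experiment the groups of these 3 Rabs overlapped, with log2 ratios of 0.11 for Rab35, 0.05 for Rab11 and 0.04 for Rab8 (SE 0.33, 0.30 and 0.38). The libraries within each group differed more there. Rab8 had 433 and 224 CPM in GFP-slam, against 205, 361 and 394 CPM in OrR, so that each group held a low library and at least 1 high one.

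The other 4 Rabs of early and recycling endosomes had groups that overlapped. Rab5, which controls entry into the early endosome, had nearly the same level in all antibody libraries, with 187, 179 and 182 CPM in Slam-Ab and 204, 178, 193 and 186 CPM in Dia-Ab (log2 ratio -0.06, SE 0.18). Rab4, which serves rapid recycling, had 95.2, 125 and 122.8 CPM in Slam-Ab and 74.97, 105, 107 and 102 CPM in Dia-Ab, and the groups overlapped (log2 ratio 0.23, SE 0.20). Rab4 overlaps Dcr-2 in Release 6, and Dcr-2 had a log2 ratio of -0.39 (edgeR adjusted p 0.272). Rab14, which moves cargo between Golgi and endosomes, had a ratio of -0.26. Rab21, a regulator of early endosomes, had 13.4, 16.2 and 16.0 CPM in Slam-Ab and 7.84, 15.1, 6.37 and 10.2 CPM in Dia-Ab. Its log2 ratio of 0.61 (SE 0.37, edgeR adjusted p 0.291) came with groups that overlapped through Dia-Ab 2. Between GFP-slam and OrR the ratios of these 4 members lay between -0.29 for Rab21 and 0.03 for Rab4.

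Of the Rabs of the secretory pathway and Golgi, Rab1, which acts from the endoplasmic reticulum to the Golgi, averaged 206 ± 19.8 CPM in Slam-Ab and 251 ± 27.3 CPM in Dia-Ab (SD, n = 3 and 4; log2 ratio -0.29, SE 0.20, edgeR adjusted p 0.361). Its Slam-Ab libraries had 183, 215 and 220 CPM and its Dia-Ab libraries 284, 249, 256 and 217 CPM, with an overlap only between Slam-Ab 3 and Dia-Ab 4. Rab2 and Rab6, both at the Golgi, had ratios of -0.35 and -0.21, and Rab30 had 0.11. Rab18, found on lipid droplets and the endoplasmic reticulum, was the third member with groups apart in the upward direction. It had 24.996, 28.1 and 30.2 CPM in Slam-Ab, against 23.1, 20.4, 20.9 and 19.0 CPM in Dia-Ab (log2 ratio 0.41, SE 0.22, edgeR adjusted p 0.232). In GFP-slam over OrR the 6 members of this role ran from -0.47 for Rab19 to 0.08 for Rab1.

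Rab10, which directs secretion to the basal side of Drosophila epithelia, had 280, 228 and 246 CPM in Slam-Ab and 387, 280, 261 and 264 CPM in Dia-Ab. Dia-Ab 1 stood well above the rest, and the groups overlapped (log2 ratio -0.24, SE 0.22). Rab3, the Rab of synaptic vesicles, fell below the minimum in the antibody experiment, with 40, 136 and 51 counts in Slam-Ab and 20, 62, 5 and 9 counts in Dia-Ab. It was tested with the GFP binder, at 0.269 and 2.01 CPM in GFP-slam against 0.344, 1.09 and 1.39 CPM in OrR, with a log2 ratio of 0.27 and the largest SE of all members, 0.94.

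Late endosomes and lysosomes are the sites of the next group. Rab7, which is needed for fusion with lysosomes, had 53.0, 65.6 and 68.3 CPM in Slam-Ab, against 77.3, 81.2, 92.0 and 80.7 CPM in Dia-Ab. The groups did not overlap, and the log2 ratio of -0.41 (SE 0.18) did not pass (edgeR adjusted p 0.158). RabX1, an endosomal Rab of Drosophila, had 37.2, 28.6 and 38.0 CPM in Slam-Ab and 62.0, 32.7, 66.7 and 47.1 CPM in Dia-Ab (log2 ratio -0.59, SE 0.26, edgeR adjusted p 0.159). Dia-Ab 2 was the library that brought the groups together. Rab39 had a ratio of 0.49 and Rab9, which in mammals returns receptors to the Golgi, of -0.16, and both had overlapping groups. In GFP-slam over OrR, RabX1 and Rab39 had log2 ratios of -0.33 and -0.30 (SE 0.26 and 0.24), among the 4 largest in size there.

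The remaining tested members were Rab23, a regulator of planar polarity in Drosophila, Rab40, RabX4 and RabX6. Their antibody ratios ran from -0.27 for Rab23 to 0.37 for RabX4, none with an adjusted p under 0.5. RabX6 was the least even of them, with 18.4, 15.4 and 15.6 CPM in Slam-Ab and 23.1, 8.37, 31.6 and 11.03 CPM in Dia-Ab. RabX4 overlaps Kaz and RabX6 overlaps Vti1a in Release 6. In GFP-slam over OrR the ratio of RabX4 was -0.32 (SE 0.46), and the other 3 lay between 0.07 and 0.11.

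**Figure D3:**
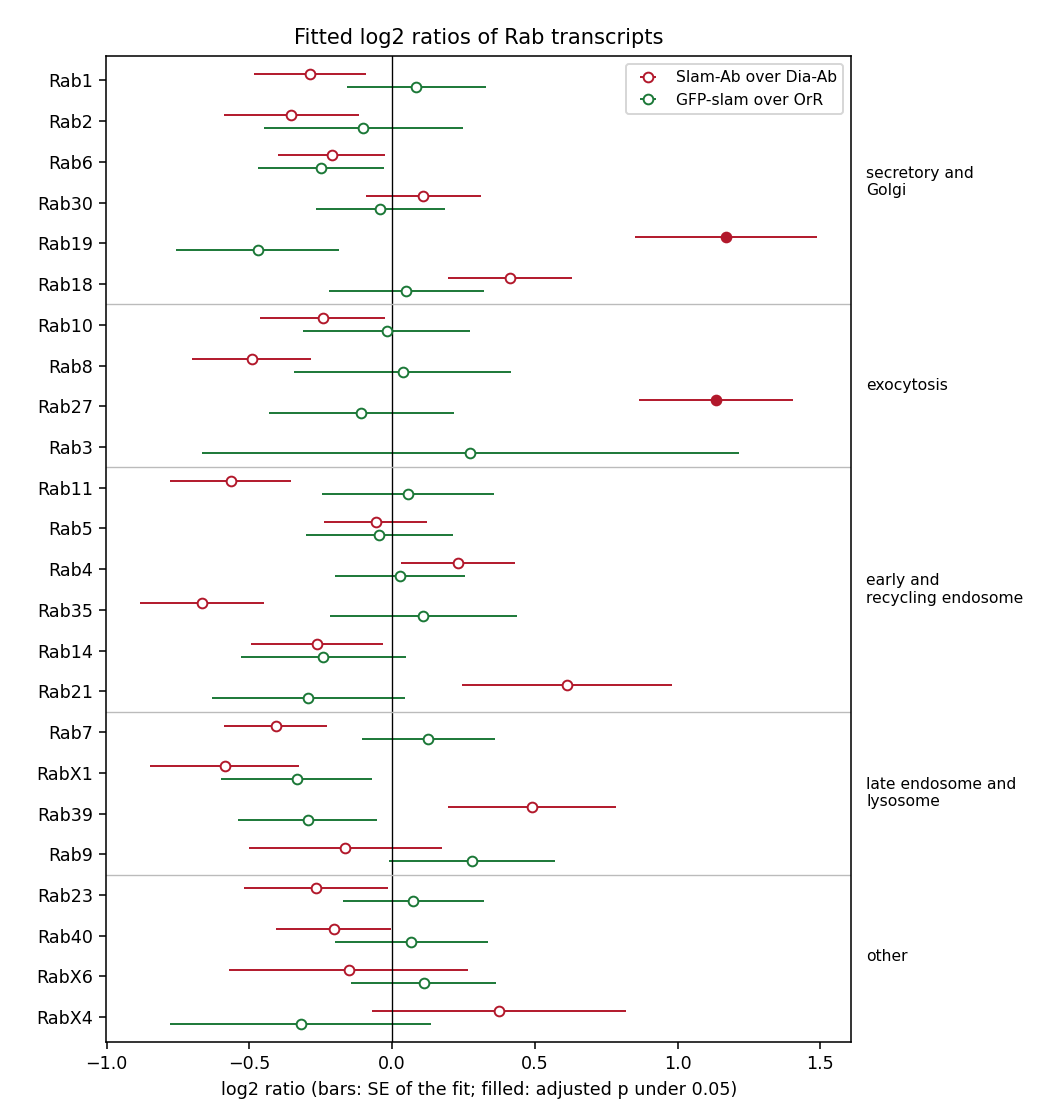
Fitted log2 ratios (horizontal axis; bars: SE) of 24 Rab transcripts in Slam-Ab over Dia-Ab (red, upper point of each row) and GFP-slam over OrR (green, lower point), with filled points at an adjusted p under 0.05. Only Rab19 and Rab27 are filled, both in the antibody experiment, and the GFP-slam ratios all lie within 0.5 of 0.

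In the GFP-binder experiment 24 members passed its minimum, a mean normalized count of 10, and 0 passed the test. The background was 0.414% higher, 0.184% lower and 0.598% in either direction of 8697 genes, so that fewer than 1 call among 24 members would match it. By an unadjusted p under 0.05 the count was also 0, beside 5.98% of all genes, and with DESeq2 it was 0 beside 2.22%. No member had all GFP-slam libraries above all OrR libraries, and 2, Rab6 and Rab19, had them all below, where the background was 8.14% and 9.47%. The ratios ran from -0.47 for Rab19 to 0.28 for Rab9 with a median of 0.00, and 12 were above 0 and 12 below, where the background was 49.4% above and 50.6% below. Their SEs were 0.22 to 0.94, with a median of 0.28. GFP-slam 1 exceeded GFP-slam 3 in 16 of 24 members, against 49.1% of all genes tested. Gaps between the 2 libraries were wide in Rab2, with 324 and 179 CPM, Rab8, with 433 and 224 CPM, and Rab35, with 184 and 116 CPM.

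The antibody ratio of a Rab went with its mean CPM, which is used here as a measure of the counts behind a gene and not of its abundance, since it carries transcript length. Across the 23 members the Spearman correlation of the log2 ratio with the mean CPM was -0.63, and over all 7335 genes tested it was -0.38. These points are genes of the same 7 libraries and share their depth, and the ratio and the mean come from the same counts. Of the 12 members at or above their median of 73.5 CPM, 11 had a ratio below 0, with Rab4 as the exception, and so did 65.9% of the 3122 genes at or above it. Below that limit 4 of 11 members had a ratio under 0, against 41.2% of 4213 genes. The median ratio was -0.28 for the 12 members at or above the limit and 0.37 for the 11 below it, beside -0.18 and 0.13 for all genes on either side. The correlation in the GFP-binder experiment was 0.09 for 24 members and 0.04 for 8697 genes, and 6 of 12 members on either side of the median had a ratio below 0.

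**Figure D4:**
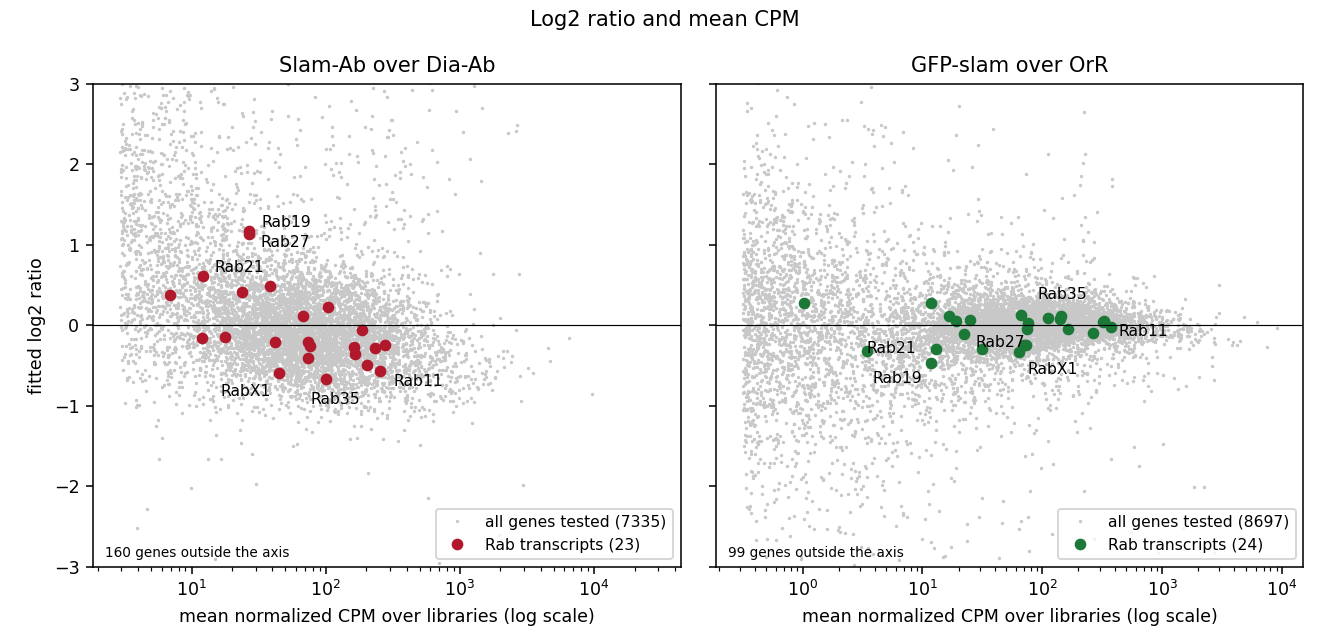
Fitted log2 ratio against mean normalized CPM on a log scale for Rab transcripts (large points) and all genes tested (small grey points) in the antibody experiment (left) and the GFP-binder experiment (right). With the antibody the 12 members of higher CPM have a median of -0.28 and the 11 others one of 0.37, whereas the GFP-slam ratios lie around 0 at every CPM.

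The minimum left out 9 members in the antibody experiment and 8 in the GFP-binder experiment. Rab26, a Rab of secretory vesicles in mammals, had 10, 25 and 5 counts in Slam-Ab and 0 in each of the 4 Dia-Ab libraries. Its summed level in Slam-Ab was 8.65-fold a floor of 3 counts over the Dia-Ab group, with the Slam-Ab counts taken as exact. Rab26 did not pass in a fit with no minimum (log2 ratio 6.24, SE 2.31, edgeR adjusted p 0.0820). In Release 6 this gene overlaps asRNA:CR46068. In the GFP-binder experiment Rab26 had 2 and 10 counts in GFP-slam, against 5, 7 and 16 counts in OrR. RabX5 had 9 counts over Slam-Ab and 0 over Dia-Ab, 1.95-fold the same floor, and 3 over GFP-slam and 2 over OrR. With no minimum its antibody log2 ratio of 4.20 (SE 2.28) did not pass (edgeR adjusted p 0.235). RabX2 had 4 counts over Slam-Ab and 0 over Dia-Ab, and 0 over GFP-slam and 6 over OrR. Each Slam-Ab library was deeper than any Dia-Ab library, and floors and counts cover counting error only.

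Of the X-linked group of genes named after Rab9, Rab9Fa had 1 count in all of Slam-Ab and 0 elsewhere, and Rab9Fb had 1 count in each GFP-slam library and 0 elsewhere. Rab9D, Rab9Db and Rab9E had 0 counts in all 12 libraries. A count of 0 allows up to 0.0356 CPM over the Slam-Ab group and 0.0549 CPM over the Dia-Ab group. These genes are close copies of one another, and the counting could have left out reads that match several of them, so that their values are uncertain.

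The genes of the Rab cycle were described in 4 lists by their counts and medians. Of 32 effectors and tethers, 23 were tested in the antibody experiment, and 3 rose and 0 fell in Slam-Ab, beside 7.17% higher and 2.94% lower of all genes tested. GCC185, a golgin of the trans-Golgi that binds Rabs, had 802, 489 and 324 CPM in Slam-Ab, against 94.4, 84.0, 56.7 and 51.7 CPM in Dia-Ab (log2 ratio 2.91, edgeR adjusted p 2.13e-04). Golgin245, a second golgin of that compartment, had 555, 356 and 335 CPM in Slam-Ab, against 108, 107, 116 and 91.3 CPM in Dia-Ab (log2 ratio 1.98, edgeR adjusted p 2.27e-04). Every Slam-Ab library was far above every Dia-Ab library for both golgins. The smaller change of car, a subunit of the tethering complex that acts with Rab7, was 0.75 (edgeR adjusted p 0.0316) and was lost without Slam-Ab 1, Slam-Ab 2, Slam-Ab 3, Dia-Ab 1, Dia-Ab 2 or Dia-Ab 3, with total counts, with a minimum of 10 and with filterByExpr (adjusted p 0.0553 to 0.102).

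Both golgins were also measured with the GFP binder. GCC185 had 91.0 and 81.4 CPM in GFP-slam, against 96.1, 50.8 and 104 CPM in OrR (log2 ratio 0.04), and its ratio differed between the experiments by 2.84 (SE 0.50, edgeR adjusted p 0.00454). Golgin245 had 133 and 650 CPM in GFP-slam, against 151, 328 and 94.1 CPM in OrR. Its log2 ratio of 1.04 did not pass (edgeR adjusted p 1.0). GFP-slam 3 was the highest library and OrR 2 the next. Without GFP-slam 1, which leaves 1 GFP-slam library, the ratio was 1.77.

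The Rab11 adaptor nuf had 188, 171 and 161 CPM in Slam-Ab and 359, 237, 191 and 166 CPM in Dia-Ab, with a log2 ratio of -0.46 (edgeR adjusted p 0.276) and overlapping groups. Rip11, another Rab11 effector, had -0.48 (adjusted p 0.135), and Rilpl, a relative of the Rab effector RILP, had -1.02 (adjusted p 0.0610). Over the whole list of effectors and tethers the median was 0.18 in Slam-Ab over Dia-Ab, beside -0.02 over all genes tested. With the GFP binder 0 of 32 passed, beside 0.598% of all genes, 4 of them had an unadjusted p under 0.05, beside 5.98%, and the median was -0.04, beside -0.01. The exocyst subunit Sec15, an effector of Rab11, had the lowest adjusted p of the list there, with 173 and 159 CPM in GFP-slam, against 71.2, 67.8 and 45.0 CPM in OrR (log2 ratio 1.44, edgeR adjusted p 0.0583). It passed with DESeq2, with a minimum of 50 and with no minimum. In the same list Vps8, GM130 and Sec10 had log2 ratios of -0.84, -0.65 and -0.65 (adjusted p 0.330, 0.574 and 0.828).

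The Rab regulators held 0 calls in either experiment, of 25 tested with the antibody and 27 with the GFP binder, where the shares over all genes were 10.1% and 0.598%. An unadjusted p under 0.05 was found for 3 with the antibody and 2 with the GFP binder, beside 28.7% and 5.98% of all genes. Their medians were -0.10 in Slam-Ab over Dia-Ab and -0.04 in GFP-slam over OrR. The 4 of lowest adjusted p with the antibody were Tbc1d15-17 (log2 ratio -0.61), Ccz1 (0.70), TBC1D16 (-0.76) and Rich (0.41), at 0.135, 0.146, 0.148 and 0.226. In turn plx, a protein with a TBC domain, had 26.0 and 19.99 CPM in GFP-slam, against 65.5, 55.0 and 57.7 CPM in OrR. The log2 ratio of -1.37 did not pass (edgeR adjusted p 0.0583) but did with DESeq2, with a minimum of 50, with no minimum and in a fit of both experiments. Its ratios differed between the experiments by 1.25 (SE 0.32, edgeR adjusted p 0.0448), as plx was at -0.10 with the antibody. RabGGTb, a subunit of the enzyme that attaches the lipid anchor of Rabs, had -0.93 with the GFP binder (adjusted p 0.320) and 0.41 with the antibody (adjusted p 0.353).

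The TRAPP complex, whose forms activate Rab1 and Rab11, had 7 genes tested with the antibody and 10 with the GFP binder, and 0 passed in either, beside 10.1% and 0.598% of all genes. With so few genes a count of 0 cannot be told from those shares. Its medians were 0.36 in Slam-Ab over Dia-Ab and 0.01 in GFP-slam over OrR, and its lowest adjusted p was 0.183 (CG9067, log2 ratio 0.62). By an unadjusted p under 0.05 the count was 0 in both. The antibody table leaves 394 identifiers without a name, and 8 exocyst genes and 3 TRAPP genes could not be matched to it by name, so that they were not analysed there.

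Of 14 other small GTPases of membrane traffic, 12 were tested with the antibody, and 1 rose and 1 fell, beside 7.17% and 2.94% of all genes. Arl4, an Arf-like GTPase, rose in Slam-Ab, with 91.0, 198 and 185 CPM against 46.3, 85.6, 62.1 and 82.5 CPM in Dia-Ab (log2 ratio 1.19, edgeR adjusted p 0.0264). Arf1, listed in the tables as Arf79F and needed for coats at the Golgi, fell, with 361, 398 and 465 CPM in Slam-Ab against 735, 632, 692 and 601 CPM in Dia-Ab (log2 ratio -0.70, edgeR adjusted p 0.0458). Arf1 lost its call without any one of Slam-Ab 1, Slam-Ab 2, Slam-Ab 3, Dia-Ab 1, Dia-Ab 2 or Dia-Ab 3 (adjusted p 0.0655 to 0.180), and Arl4 lost it without Slam-Ab 2, Slam-Ab 3, Dia-Ab 1 or Dia-Ab 3 and with total counts (adjusted p 0.0653 to 0.111). The median of the list was -0.39, lower than that of the Rabs, and Arl5, Arl1, Rala and Rab32 had ratios of -0.66, -0.48, -0.45 and -0.37. Between GFP-slam and OrR 0 of 14 passed, beside 0.598% of all genes, 0 had an unadjusted p under 0.05, and the median was 0.06.

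**Figure D5:**
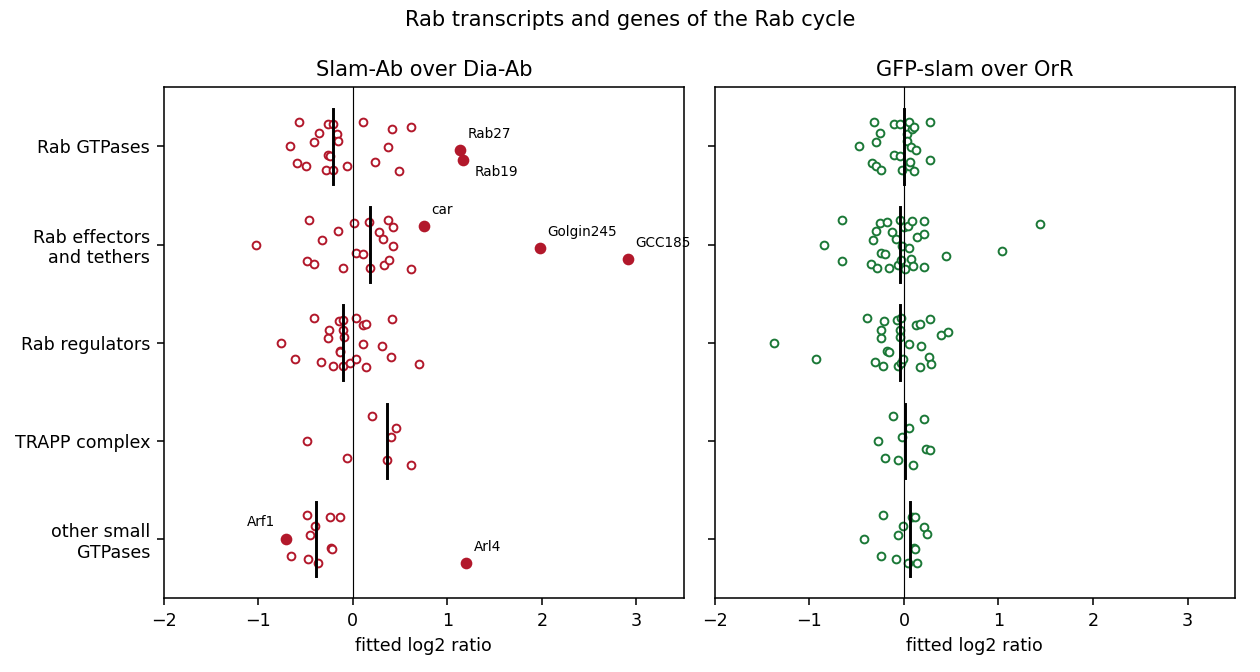
Fitted log2 ratios of the Rab transcripts and of 4 lists of genes of the Rab cycle in Slam-Ab over Dia-Ab (left) and GFP-slam over OrR (right), with 1 point per gene, filled at an adjusted p under 0.05, and a black line at each median (vertical spread of points within a list has no meaning). The filled points are 2 Rabs, 3 effectors and tethers and 2 other small GTPases with the antibody, and none with the GFP binder.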

How the data were processed

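RNA precipitated from embryo lysate was sequenced in 12 libraries (TruSeq RNA kit, HiSeq2000). The submitters' processing notes name DESeq2, STAR 2.5.0, FastQC 0.11.4 and bcl2fastq 2.17.1.14. How reads were counted, by strand or not, and on which build is not given in the sources used here. For each gene the deposited tables hold whole-number counts of reads. The authors' tables of candidate genes also hold their own ratios and p-values, which were not used. One of them gave the coordinates and transcript length of Rab19 and Rab27, and 99.9% of its 1649 matched genes share a start or end with Release 6.

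Each experiment had its own fit in edgeR 4.0.16 (R 4.3.3, TMM, robust glmQLFit, glmQLFTest, Benjamini-Hochberg over all genes kept, threshold 0.05), and their difference in 1 fit of 12 libraries. The minimum for a gene was a mean normalized count of 50 (antibodies) or 10 (GFP binder). The 2 limits are those of the study's methods, which do not say what quantity they apply to, and the mean over the libraries of an experiment was chosen here. Symbols of related genes were matched through RefSeq synonyms. A floor is 3 counts over a group. The figures were made in matplotlib 3.10.9. The fits were tested on simulated data first. Depth limits the rare members, since 1 count is worth between 0.0196 and 0.228 CPM.

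The libraries are biological replicates by the study's methods. Deviations from group means correlated at 0.250, 0.395 and 0.154 between same-numbered Slam-Ab and Dia-Ab libraries, but Slam-Ab 3 had 0.280 with Dia-Ab 4. Same-numbered libraries were taken as pairs only in the fit with the replicate block and in the ratios of same-numbered libraries. The labels do not say what the numbers mean, so the pairing is an assumption. The correlations of same-numbered GFP-binder libraries, 0.190 and 0.200, are too few to judge. With 2 GFP-slam libraries their deviations are also mirror images. GFP-slam 3 with OrR 1 thus has -0.190 and GFP-slam 1 with OrR 3 has -0.200.

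The members and lists were chosen with earlier results of these data known. Named are members that passed a test, the 4 largest ratios of each experiment, Rab1, Rab4, Rab5, Rab7, Rab8, Rab11, Rab35, members below the minimum, and of each list the genes that passed, up to 4 of lowest adjusted p and nuf. Other members and Dcr-2, Arl5 and Mhc were named after their values were seen. Alternatives were other scalings (RLE, total counts), DESeq2 1.42.0, other minimums, the replicate block, 1 fit of both experiments, a wider naming rule and each library left out in turn.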

Additional observations from a re-analysis of the deposited data

Results flagged for a closer look

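In the Dia-Ab group, the only one of 4 libraries, each of the 23 members tested was searched for a library far from the other 3, by the gap to its neighbour as a share of the whole range. This picks out about 1 group in 20 by chance, and it picked out 2 of 23 members, both through Dia-Ab 1. The same search was not made over all genes tested, so the count cannot be set against a background. Rab4 was lowest in Dia-Ab 1, at 74.97 CPM, against 105, 107 and 102 CPM in the other 3, a gap of 0.845 of the range. Rab10 was highest there, at 387 CPM, against 280, 261 and 264 CPM, a gap of 0.851 of the range.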

How the results depend on the processing

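The 2 calls among the Rabs, both higher, became 1 higher and 1 lower with total counts, 2 higher and 1 lower with the replicate block, a minimum of 10 or no minimum, 4 with DESeq2 and 4 with filterByExpr (2 higher and 2 lower, Rab11 and Rab35 being the lower ones), and ranged from 0 to 3 as libraries were left out (0 without Slam-Ab 2 or without Dia-Ab 1). Their median of -0.21 over 23 members was -0.28 with total counts, -0.13 with the replicate block and -0.25 to -0.10 without single libraries. Other minimums changed the set of members. The median was -0.30 with a minimum of 10 and -0.31 with filterByExpr (24 members each). With no minimum it was -0.12 over 28 members, where every added member had a ratio above 0. A minimum of 10 and filterByExpr moved the median of the genes tested by -0.12 each, and total counts by -0.09. With the GFP binder there were 0 calls under every alternative, and the median of 0.00 ran from -0.205 to 0.0931 without single libraries. The block took it to -0.07. Calls in the lists with the antibody were 5, and 2 to 5 without single libraries. With the GFP binder they were 0, but 2 with DESeq2, a minimum of 50, no minimum or the replicate block and 1 in the fit of both experiments. Without OrR 1, OrR 2 or OrR 3 they were 0. They did not stay at 0 without either GFP-slam library, in fits that leave 1 library in that group. Of the members, 0 differed between experiments, and 0 to 1 without single libraries. Over the single genes followed under each setting, which did not include Sec15 or plx, 28 values lost and 10 gained a call. None reversed among called ones, and 59 changed sign with neither value called. The gain of Golgin245 rests on a single GFP-slam library. The causes were not tested. Leaving out a GFP-slam library leaves 1, assumed to vary like OrR.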
